A study of Mus musculus with 10 samples.

Results

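Respiratory complex I is the entry point for electrons from NADH into the mitochondrial respiratory chain, and its subunits encoded in the nucleus are described here in mouse kidney. The subunits were taken as all protein-coding genes whose symbol starts with Nduf followed by a, b, c, s or v and a digit, which leaves out the assembly factors named Ndufaf and also Ndufab1, the acyl carrier protein, which is a subunit of the complex. The rule gave 37 of the 43629 genes counted, and 34 of the 37 had enough reads to be tested, among 10055 genes in all. The kidneys came from 10 male UM-HET3 mice, a genetically heterogeneous stock in which each animal carries its own mix of alleles. From 3 months of age, 4 animals received rilmenidine, an imidazoline receptor agonist prescribed for high blood pressure, mixed into the diet at 10 ppm, and 6 littermate controls received the same Purina diet without it. Both groups were killed at 4 months, after 1 month of treatment, so a single sex, dose and duration was sampled.

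Complex I oxidises NADH, passes the electrons along a chain of iron-sulfur clusters to ubiquinone and pumps protons across the inner mitochondrial membrane. It has a matrix arm, made of the N module that binds NADH and the Q module that reduces ubiquinone, and a membrane arm with a proximal and a distal part. A small set of core subunits carries the cofactors and catalysis, the proton channels are encoded in mitochondrial DNA, and the many remaining accessory subunits serve assembly and stability. Kidney tubules, above all the proximal tubule, rely on respiration to drive the reabsorption of sodium and solutes.

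Libraries were made from polyadenylated RNA by the CEL-Seq2 method, which reads the 3′ end of transcripts, and their total counts ran from 863605 to 3232063, with medians of 1489031 in controls and 2483263 in rilmenidine kidneys (two-sided exact permutation test, p = 0.0571, the smallest possible p being 0.00476). Values below are CPM, the counts of a gene divided by a library size normalized by relative log expression, given on the usual scale for such values. The extraction text of the labels names liver, but the 8 proximal tubule markers summed to 40650 to 67200 CPM and the 4 liver markers to 2.25 to 24.0 CPM over the 10 kidneys. Control 6, rilmenidine 3 and rilmenidine 4 stood apart in having under 10 CPM on olfactory and vomeronasal receptor genes, against 51.7 to 436 CPM in the other libraries. Controls 2 and 6 stood apart from the other 4 controls in Malat1, a nuclear long non-coding RNA, with 397.9 and 283.8 CPM against 1182 to 2100 CPM, while the 4 rilmenidine kidneys had 306.1 to 393.5 CPM. In whole tissue, fewer cells of a type and less RNA per cell cannot be told apart.

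The question was whether the complex I subunits differed between rilmenidine and control kidneys. Most were measured at a somewhat higher level in rilmenidine kidneys, and no single subunit passed the test. Of the 34 tested subunits 33 had a log2 fold change above 0, against 50.3% of all genes tested, and their median was 0.22 against 0.00 over all genes. Among 107 other genes within the transcript length and CPM quartiles of the subunits, described below, the median was 0.23 and 92.5% were above 0. By edgeR's quasi-likelihood test, with p-values of the 10055 genes adjusted after Benjamini and Hochberg, 0 subunits had an adjusted p under 0.05, as did 0.0% of all genes. At an unadjusted p under 0.05, 10 subunits were higher against a background of 4.43% of genes, and 0 were lower against 6.13%. The smallest edgeR adjusted p among the subunits was 0.279, for Ndufa7. The other tools gave 0 subunits as well, although DESeq2 called 60 genes and edgeR's likelihood ratio test 44 genes over the whole table.

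**Figure D1:**
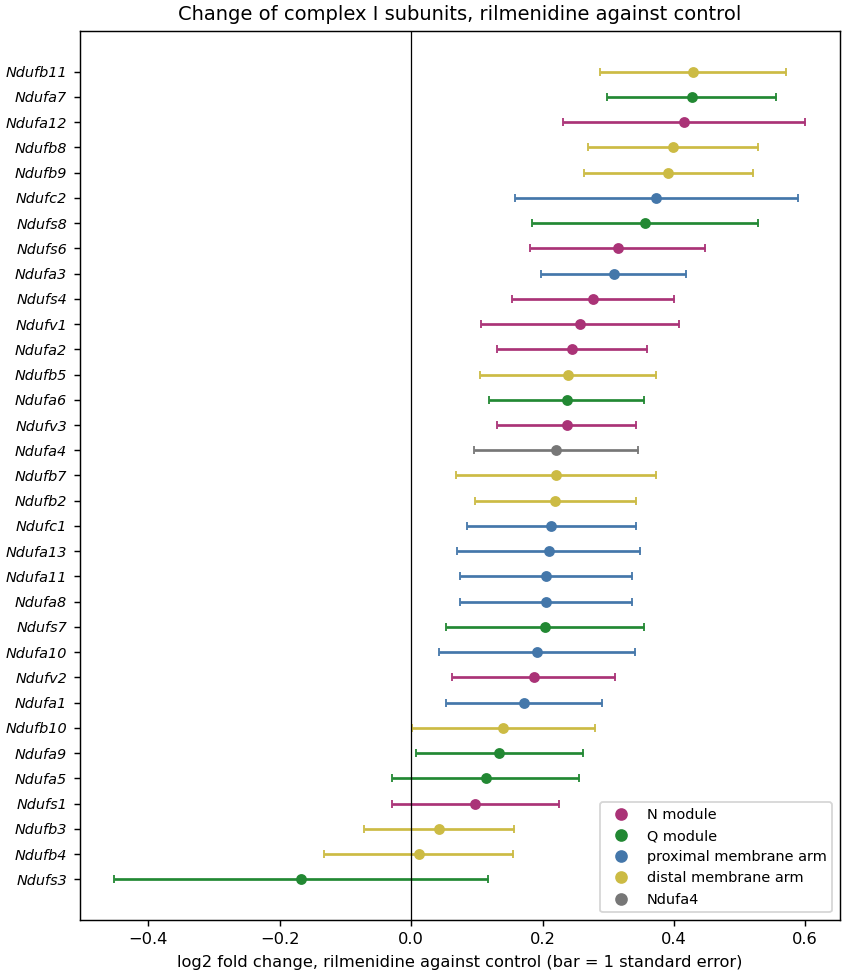
The log2 fold change of rilmenidine against control is plotted for 33 tested subunits, ordered by size and coloured by module, with bars of 1 standard error. The points run from -0.17 for Ndufs3 to 0.43 for Ndufb11, and every point but that of Ndufs3 lies above 0.

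Kidneys differed in the level of the whole set. The mean log2 CPM of the 34 subunits was 7.67, 7.81, 7.56, 7.59, 7.52 and 7.95 in controls 1 to 6 and 8.01, 7.85, 7.96 and 7.86 in rilmenidine kidneys 1 to 4. The groups overlapped through control 6, which lay above rilmenidine kidneys 2 and 4. The group means were 7.68 ± 0.16 (SD, n = 6) and 7.92 ± 0.08 (SD, n = 4). Control 6 was the highest control for 25 of the 34 subunits, control 2 for 6 and control 1 for 3, and control 5 was the lowest for 16. Counted by kidney, 15, 30, 6, 8, 3 and 34 subunits lay above their control mean in controls 1 to 6, and 33, 28, 33 and 29 in rilmenidine kidneys 1 to 4.

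**Figure D2:**
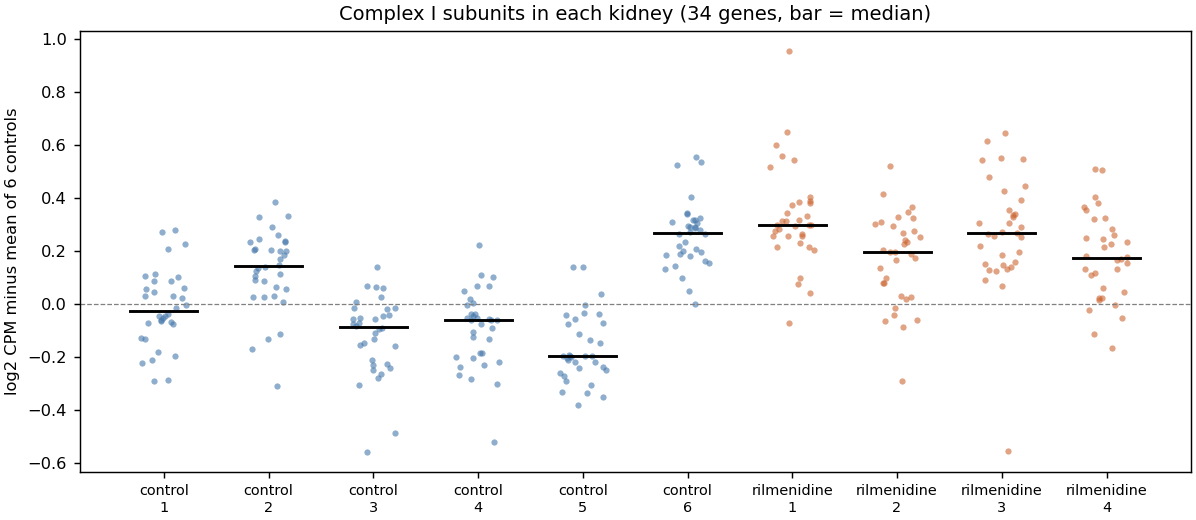
Each point is the log2 CPM of a subunit in a kidney minus its mean over the 6 controls, for 34 subunits, with a black bar at the median. The medians of controls 2 and 6 (0.14 and 0.27) lie in or near the range of the rilmenidine kidneys (0.18 to 0.30), and those of the other 4 controls lie between -0.19 and -0.03.

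The kidneys with a high level of the subunits were those with little Malat1. Control 5 had the lowest mean of the 34 subunits and the most Malat1, with 2100 CPM, and controls 2 and 6 had both the least Malat1 and the highest means among controls. Malat1 itself had a log2 fold change of -1.73 (SE 0.42, edgeR adjusted p = 0.211). With the log2 CPM of Malat1 as a covariate the median log2 fold change of the subunits was 0.03, with 24 of 34 above 0 and 0 subunits at an unadjusted p under 0.05. Only controls 2 and 6 shared the low Malat1 of the rilmenidine kidneys, so treatment and Malat1 can hardly be told apart in this fit. The part of Malat1 in the subunits' values was not tested. When log2 library size was added as covariate, the median was 0.14, and 1 subunit had an unadjusted p under 0.05. Without control 6 the median was 0.28 and 18 subunits had an unadjusted p under 0.05, and 0 passed the adjusted threshold.

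**Figure D3:**
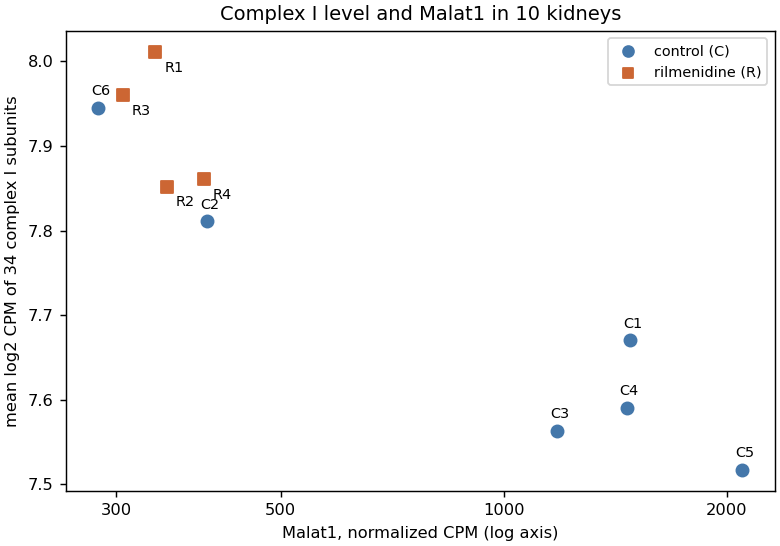
The mean log2 CPM of the 34 subunits is plotted against Malat1 in normalized CPM on a log axis, with 1 point per kidney (C, control and R, rilmenidine, with the replicate number). Controls 2 and 6 and the 4 rilmenidine kidneys lie between 283.8 and 397.9 CPM of Malat1 and at or above a mean of 7.81, and the other 4 controls lie at 1182 CPM or more and at or below 7.67.

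The N module takes electrons from NADH. All 8 of its nuclear subunits were tested, and all 8 had a log2 fold change above 0, with a median of 0.25. Of the 8, 5 were higher at an unadjusted p under 0.05, against 4.43% of all genes tested. These 5 were Ndufa12, Ndufs6, Ndufs4, Ndufa2 and Ndufv3, all accessory subunits. The 3 core subunits of the module, Ndufv1, Ndufv2 and Ndufs1, were not among them.

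Ndufv3 (chr17:31520115-31531331, GRCm38, plus strand), a small accessory subunit at the tip of the matrix arm, had the smallest SD of log2 CPM among controls of the 34 subunits. Its controls ran from 235.7 to 255.9 CPM with a median of 244.4, and the rilmenidine kidneys had 319.5, 279.7, 270.4 and 287.6 CPM. Every rilmenidine kidney lay above every control, which was so for 2 of the 34 subunits against 0.796% of all genes. The means were 245.4 ± 8.99 (SD, n = 6) and 289.3 ± 21.3 CPM (SD, n = 4). The log2 fold change was 0.24 (SE 0.11, edgeR adjusted p = 0.442).

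Ndufs4 and Ndufs6 are accessory subunits needed to attach the NADH-binding part, and loss of Ndufs4 is a known cause of Leigh syndrome and the basis of a mouse model of it. Ndufs4 ran from 160.8 to 225.4 CPM in controls, with a median of 181.4, and was 245.3, 210.1, 235.1 and 224.5 CPM in rilmenidine kidneys, of which 2 lay above all controls. Its log2 fold change was 0.28 (SE 0.12, edgeR adjusted p = 0.442). Of all the subunits, Ndufs4 followed the mean of the others most closely over the 10 kidneys (r = 0.990, a description across kidneys that share the library effects above). Ndufs6, which binds zinc, ran from 140.6 to 219.1 CPM in controls, with a median of 184.8, against 218.6, 231.3, 241.4 and 213.6 CPM, and had a log2 fold change of 0.31 (SE 0.13, edgeR adjusted p = 0.421). For both genes the overlap between groups came from the upper controls, with control 6 the highest.

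Ndufa2, an accessory subunit with a thioredoxin-like fold, ran from 216.9 to 278.0 CPM in controls, with a median of 231.8, and was 285.3, 280.7, 271.1 and 298.9 CPM in rilmenidine kidneys. Only control 6 reached the rilmenidine range. The log2 fold change was 0.25 (SE 0.11, edgeR adjusted p = 0.465).

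The core subunits of the N module hold its cofactors. Ndufv1 carries the flavin that accepts electrons from NADH, and it ran from 110.7 to 165.7 CPM in controls, with a median of 125.0, against 137.4, 129.2, 178.1 and 186.4 CPM. Rilmenidine kidneys 3 and 4 lay above all controls and kidneys 1 and 2 within them, and the log2 fold change was 0.26 (SE 0.15, edgeR adjusted p = 0.574), or -0.02 with library size as a covariate. Ndufv2, which holds an iron-sulfur cluster beside the flavin, had a control median of 223.5 CPM and a highest control of 273.9 CPM (mean 233.2 ± 29.2, SD) against 285.3, 236.2, 287.2 and 254.5 CPM, and had a log2 fold change of 0.19 (SE 0.12, edgeR adjusted p = 0.623). Ndufs1, the largest subunit of the matrix arm and the holder of further clusters, had overlapping groups. It ran from 214.0 to 305.7 CPM in controls (median 274.5) and was 256.3, 288.3, 333.4 and 280.7 CPM with rilmenidine, a log2 fold change of 0.10 (SE 0.13, edgeR adjusted p = 0.842).

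Ndufa12 (chr10:94198720-94221443, GRCm38, plus strand), an accessory subunit where the N and Q modules meet, had the third largest log2 fold change among the subunits, and a near-identical copy elsewhere in the genome was counted beside it. The processed pseudogene Gm15920 (chr5:130188395-130188796) matches 402 bases of the Ndufa12 transcript, from position 127 to 528, with 2 differences, A225G and T504C, counted from 1 at the 5′ end of the 1110-base Ndufa12-201 transcript of GENCODE M21 and with the Ndufa12 base first. Both lie in the coding part, at chr10:94199998 and chr10:94220837, and T504C is 21 bases before the last coding base. A225G is 885 bases and T504C 606 bases before the 3′ end of the transcript, so the match stops well short of that annotated end. Where in the transcript the counted reads lay is not known from the counts. The coding stretches around both differences are shown because they hold the only bases by which a read within the 402 could be assigned, with the differing base in capitals.
Ndufa12, transcript positions 211 to 239: gaagacaaatatggAaataaatactacga
Gm15920, the same stretch: gaagacaaatatggGaataaatactacga
Ndufa12, transcript positions 490 to 518: attcatgaatgggtTccaccttcgacacc
Gm15920, the same stretch: attcatgaatgggtCccaccttcgacacc

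The counts fell on both genes in proportions that formed 2 bands. Ndufa12 took 37.1%, 37.0%, 34.9%, 64.2%, 65.2% and 63.0% of the summed counts in controls 1 to 6 and 63.4%, 62.4%, 62.8% and 38.6% in rilmenidine kidneys 1 to 4. Summed counts were 1169 to 5020 per kidney, and the 95% Wilson intervals, which cover counting error only, ran from 32.5% to 39.9% over the 4 kidneys of the lower band and from 60.4% to 67.4% over the 6 of the upper band. The lower band held 3 of 6 controls and 1 of 4 rilmenidine kidneys, and kidneys with much and with little Malat1 were in both bands.

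The difference between groups in Ndufa12 moved with these proportions. Ndufa12 alone ran from 424.1 to 854.7 CPM in controls (median 602.1) and was 933.6, 793.4, 930.9 and 604.9 CPM in rilmenidine kidneys, a log2 fold change of 0.42 (SE 0.18, edgeR adjusted p = 0.442). The lowest rilmenidine value was that of kidney 4, in the lower band. With the pseudogene's counts added, an alternative chosen after seeing the data, the means were 1243 ± 179 (SD, n = 6) and 1449 ± 126 CPM (SD, n = 4). The log2 fold change was then 0.22 (SE 0.14, edgeR adjusted p = 0.599), the same to 2 decimals as the median of all subunits.

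**Figure D4:**
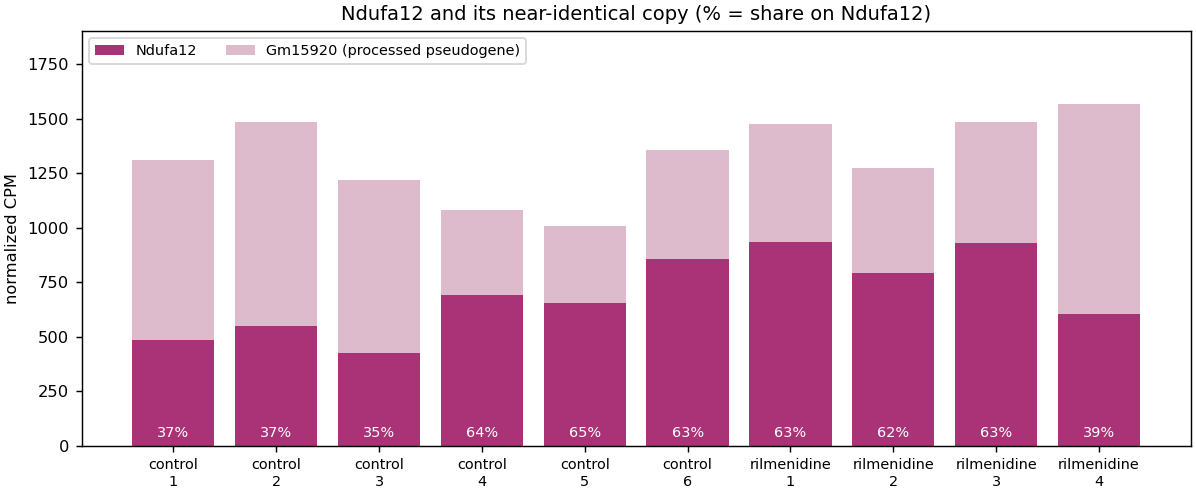
Stacked bars give the normalized CPM of Ndufa12 and of its processed pseudogene Gm15920 in each kidney, and the white figure is the share of their summed counts on Ndufa12. The share is 35% to 39% in controls 1 to 3 and rilmenidine 4 and 62% to 65% in the other 6 kidneys, while the summed height runs from 1005 to 1568 CPM.

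The Q module hands electrons to ubiquinone. Of its 8 subunits 7 had a log2 fold change above 0, with a median of 0.22. Only 1, Ndufa7, was higher at an unadjusted p under 0.05, against 4.43% of all genes tested. Ndufa7 (chr17:33824572-33838317, plus strand), an accessory subunit near the quinone site, ran from 114.5 to 162.2 CPM in controls, with a median of 128.2, and was 200.6, 190.1, 158.1 and 168.9 CPM in rilmenidine kidneys. Only rilmenidine kidney 3 lay below the highest control, which was control 6. The means of 132.9 ± 17.9 (SD, n = 6) and 179.4 ± 19.4 CPM (SD, n = 4) gave a 1.34-fold higher level, with a log2 fold change of 0.43 (SE 0.13, edgeR adjusted p = 0.279).

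Among the core subunits of the Q module, Ndufs7 lies at the ubiquinone site, Ndufs8 relays electrons to it through iron-sulfur clusters, and Ndufs3 holds the assembly together. Ndufs8 ran from 58.4 to 102.2 CPM in controls (median 61.7) against 86.4, 85.3, 108.1 and 91.8 CPM, a log2 fold change of 0.36 (SE 0.17, edgeR adjusted p = 0.483). Controls 2 and 6 exceeded the lowest rilmenidine kidney. Ndufs7 ran from 94.6 to 146.2 CPM (median 114.0) against 171.1, 123.8, 128.0 and 127.1 CPM, so that rilmenidine 1 alone exceeded the controls, and had a log2 fold change of 0.20 (SE 0.15, edgeR adjusted p = 0.672). With Malat1 as a covariate the log2 fold changes of Ndufs7, Ndufs8 and Ndufs1 were -0.03, -0.01 and -0.05.

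Ndufs3 (chr2:90894634-90904827, minus strand) was the exception among the tested subunits. It had only 8 to 24 counts per kidney, ran from 6.64 to 10.1 CPM in controls (median 8.18) and was 10.4, 6.52, 5.25 and 7.495 CPM in rilmenidine kidneys, a log2 fold change of -0.17 (SE 0.28, edgeR adjusted p = 0.894). A processed pseudogene, Gm12251, matches it closely and held more counts than Ndufs3 in all 10 kidneys, 20 to 71. With those counts added, a sum also chosen after seeing the data, the log2 fold change was -0.03 (SE 0.19, edgeR adjusted p = 0.981). In its variation over kidneys Ndufs3 did not follow the other subunits (r = 0.03 with their mean), at a depth where counting error is large. Over the libraries with more receptor gene counts its log2 fold change was 0.04.

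The other 3 subunits of the module, all accessory, had values close to the median of the set or below it. Ndufa6, a member of the LYR family that binds the acyl carrier protein, had a log2 fold change of 0.24 (edgeR adjusted p = 0.498), with 592.9 to 781.4 CPM in controls and 758.5 to 872.1 CPM with rilmenidine. Ndufa9 and Ndufa5 had log2 fold changes of 0.13 and 0.11, and in each of them 3 controls exceeded the lowest rilmenidine kidney.

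The proximal membrane arm joins the matrix arm to the proton channels. Of its 9 nuclear subunits 8 were tested, and all 8 had a log2 fold change above 0, with a median of 0.21. Only 1 was higher at an unadjusted p under 0.05, against 4.43% of all genes tested. That was Ndufa3 (chr7:3617373-3620327, plus strand), a small accessory subunit of the membrane arm, and beside Ndufv3 the only subunit in which every rilmenidine kidney lay above every control. Its controls ran from 173.8 to 215.7 CPM with a median of 182.8, and the rilmenidine kidneys had 226.7, 241.6, 249.4 and 224.8 CPM. The means were 190.1 ± 15.9 (SD, n = 6) and 235.7 ± 11.9 CPM (SD, n = 4), with a log2 fold change of 0.31 (SE 0.11, edgeR adjusted p = 0.337).

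Ndufc2 had the largest fold change in this arm and also the largest spread. It ran from 485.5 to 1049 CPM in controls (median 723.3) and was 1384, 684.2, 1046 and 688.3 CPM in rilmenidine kidneys, so that kidneys 2 and 4 lay below the control median. The log2 fold change was 0.37 (SE 0.22, edgeR adjusted p = 0.568). The remaining 6 lay close together, between 0.17 for Ndufa1 and 0.21 for Ndufc1, with Ndufa13 (also known as GRIM-19) and Ndufa11 at 0.21, the twin-cysteine-motif protein Ndufa8 at 0.21 and the nucleoside kinase-like Ndufa10 at 0.19. None of these 6 had an unadjusted p under 0.05, and in every one the highest control exceeded the lowest rilmenidine kidney.

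Ndufs5, a subunit of the same arm, fell below the filter with 1 to 4 counts per kidney. A processed pseudogene, BC002163, held 4 to 31 counts. Their sum was 7.86, 5.99, 7.47, 5.94, 6.36 and 8.97 CPM in controls 1 to 6 and 12.2, 10.9, 9.80 and 10.3 CPM in rilmenidine kidneys, and all 4 rilmenidine values exceeded all controls, as was so for 0.796% of all genes tested. Like the sum for Ndufa12, this sum was chosen after seeing the data. The log2 fold change of the sum was 0.58 (SE 0.25, edgeR adjusted p = 0.437), from 7 to 33 counts per kidney. Which of the 2 loci the RNA came from cannot be told from the counts.

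The distal membrane arm is built of the Ndufb subunits around the outer proton channels. Of 10 subunits 9 were tested, and all 9 had a log2 fold change above 0, with a median of 0.22. Ndufb8, Ndufb9 and Ndufb11 were higher at an unadjusted p under 0.05, as were 4.43% of all genes tested. Ndufb11 (chrX:20615326-20617619, minus strand), whose human counterpart is an X-linked disease gene, ran from 177.6 to 276.4 CPM in controls (median 193.5) and was 307.3, 261.7, 305.0 and 268.9 CPM with rilmenidine. Its log2 fold change of 0.43 (SE 0.14, edgeR adjusted p = 0.303), a 1.35-fold difference, was the largest of the 34. Kidneys 2 and 4 of the rilmenidine group lay below control 6 and above the other 5 controls.

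Ndufb8, whose protein is a usual blotting marker for assembled complex I, ran from 340.1 to 488.9 CPM in controls (median 390.5) and was 485.9, 499.0, 589.1 and 574.9 CPM with rilmenidine, a log2 fold change of 0.40 (SE 0.13, edgeR adjusted p = 0.296). Ndufb9, another LYR protein, ran from 208.8 to 318.5 CPM (median 248.6) against 365.9, 319.8, 356.5 and 311.3 CPM, a log2 fold change of 0.39 (SE 0.13, edgeR adjusted p = 0.303). In each of these genes 3 of the 4 rilmenidine kidneys lay above all controls, and only control 6 reached into their range.

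The other distal subunits had log2 fold changes from 0.01 to 0.24. Ndufb5, Ndufb7 and Ndufb2 had log2 fold changes of 0.24, 0.22 and 0.22, and Ndufb10, which like Ndufb7 is held by disulfide bonds, had 0.14. Ndufb3 ran from 423.2 to 518.6 CPM in controls (median 480.5) and was 505.7, 458.9, 516.0 and 470.9 CPM with rilmenidine, all within the control range (log2 fold change 0.04, SE 0.11, edgeR adjusted p = 0.937). Ndufb4 ran from 38.2 to 51.9 CPM (median 47.4) against 52.8, 43.4, 47.6 and 40.3 CPM, a log2 fold change of 0.01 (SE 0.14, edgeR adjusted p = 0.988) whose sign differed between settings. Ndufb6 was not tested, with 1 to 14 counts per kidney, and its 3′ end lies within Smim27 on the opposite strand over 350 bases. Smim27 as a whole had 15 to 93 counts per kidney, and how many of them fell in these 350 bases is not known.

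Ndufa4 and Ndufa4l2 carry complex I names, although Ndufa4 is now placed in cytochrome c oxidase and Ndufa4l2 is known as its hypoxia-induced relative. Ndufa4 ran from 372.9 to 538.5 CPM in controls (median 429.0) and was 528.3, 492.5, 511.8 and 485.6 CPM with rilmenidine, all below control 6 and above the other 5 controls, with a log2 fold change of 0.22 (SE 0.12, edgeR adjusted p = 0.552). Ndufa4l2 fell below the filter and was not tested in the fit reported here. It had 0 counts in controls 1 to 5 and 2 counts in control 6, and 3, 2, 2 and 3 counts in rilmenidine kidneys 1 to 4. Control 6 had 0.78 CPM, and the rilmenidine kidneys had 0.70 to 1.74 CPM. A count of 0 in a single kidney allows up to 3 counts, so these values are imprecise. When a gene needed 1 count in 1 sample to be kept, 37 subunits were tested and 0 had an edgeR adjusted p under 0.05. Without the pair the median of the subunits was 0.22.

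The 7 catalytic core subunits encoded in the nucleus, which carry the cofactors and the ubiquinone site, had a median log2 fold change of 0.20. An unadjusted p under 0.05 was found for 0 of them, against 4.43% (higher) and 6.13% (lower) of all genes tested. All 10 subunits with such a p were accessory. The core subunit Ndufs8 lay just above that threshold (edgeR quasi-likelihood test, unadjusted p = 0.0548). Its log2 fold change was 0.36, against 0.24 and 0.25 for the accessory Ndufv3 and Ndufa2. Whether core and accessory subunits differed was not tested.

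The other core subunits of complex I are encoded in mitochondrial DNA. Of the 7 mitochondrial ND genes 5 were tested, 3 had a log2 fold change above 0, with a median of 0.01, and 0 had an unadjusted p under 0.05. The log2 fold changes were 0.23 for mt-Nd1, 0.10 for mt-Nd2, 0.01 for mt-Nd4, -0.01 for mt-Nd6 and -0.14 for mt-Nd5, with standard errors of 0.19 to 0.21. The untested mt-Nd3 and mt-Nd4l had 0 to 1 counts per kidney. Because the strand setting of the counting is not given, how reads were divided among neighbouring ND genes is not known. The sum of the ND genes was 52170 to 97500 CPM in controls and 73240 to 90590 CPM in rilmenidine kidneys, so the rilmenidine kidneys lay within the control range. The difference between nuclear and mitochondrial subunits was not tested.

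Assembly factors bring the modules together, and most do not stay in the finished complex. The list of 19 also held Ndufab1, the subunit that the symbol rule left out, at a log2 fold change of 0.20. Of the 19, 13 had a log2 fold change above 0, against 50.3% of all genes tested, with a median of 0.20. All 3 with an unadjusted p under 0.05 were higher, against 4.43% of all genes tested. These were Nubpl, which delivers iron-sulfur clusters (0.63, SE 0.20, edgeR adjusted p = 0.296), Ndufaf8 (0.49, SE 0.20, edgeR adjusted p = 0.390) and Ndufaf3 (0.42, SE 0.17, edgeR adjusted p = 0.390). Tmem186 was the lowest at -0.24, from 13 to 46 counts.

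Genes of the other respiratory complexes also had log2 fold changes mostly above 0. Of 38 tested genes of complexes II to V, 35 had a log2 fold change above 0, against 50.3% of all genes tested, with a median of 0.24. Among the 107 other genes within the transcript length and CPM quartiles of the complex I subunits, described below, 92.5% were above 0. The part of length and CPM in the values of complexes II to V was not tested. Higher at an unadjusted p under 0.05 were 9, against 4.43% of all genes tested: Sdhb, Sdhc, Cox4i1, Cox6b1, Cox7a2, Atp5h, Atp5j, Atp5k and Atp5o, at 0.26 to 0.42. Sdhb, the iron-sulfur subunit of succinate dehydrogenase, was the highest at 0.42 (SE 0.16, edgeR adjusted p = 0.368). Cox7c was lower at -0.86 (SE 0.34, edgeR adjusted p = 0.371), from 3 to 22 counts. Of 11 other mitochondrial proteins, such as porins and import components, 7 were above 0, with a median of 0.03, and Vdac2 alone had an unadjusted p under 0.05 (0.29, SE 0.13, edgeR adjusted p = 0.449).

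Regulators of mitochondrial biogenesis had the opposite sign for the most part. Of 14 tested, 3 had a log2 fold change above 0, with a median of -0.27. At an unadjusted p under 0.05, 0 were higher against 4.43% of all genes tested, and 3 were lower against 6.13%. These were Gabpb1, a subunit of the ETS factor known as NRF2 (-0.61, SE 0.28, edgeR adjusted p = 0.456), the mitochondrial RNA polymerase Polrmt (-0.44, SE 0.19, edgeR adjusted p = 0.421) and the corepressor Nrip1 (-0.42, SE 0.19, edgeR adjusted p = 0.447). Esrra, which encodes an estrogen-related receptor that binds promoters of respiratory genes, was the highest at 0.27, from 11 to 73 counts. Ppargc1a, the coactivator PGC-1 alpha, was at -0.26 and Tfam, which packages mitochondrial DNA, at 0.12. Fold changes in the whole table fell with transcript length, as given below, and the part of length in the values of these regulators was not tested.

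The subunits are short transcripts, and the fold changes in the whole table moved with transcript length. The annotated transcripts of the 34 had a median of 977 bases, against 3223 for the 9645 protein-coding genes tested. In the shortest quintile of those genes, of 276 to 1828 bases, the genes other than the subunits had a median log2 fold change of 0.16 with 73.9% above 0, and in the longest quintile, from 5317 bases, a median of -0.13 with 29.6% above 0. The 30 subunits in the shortest quintile had a median of 0.23. Among 1197 other genes within the length quartiles of the subunits (711 to 1548 bases) the median was 0.18 and 77.1% were above 0, and among the 107 of these also within their CPM quartiles (144.6 to 382.7) the median was 0.23 and 92.5% were above 0, against 0.22 and 97.1% for the subunits. The part of length in the subunits' values was not tested further.

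**Figure D5:**
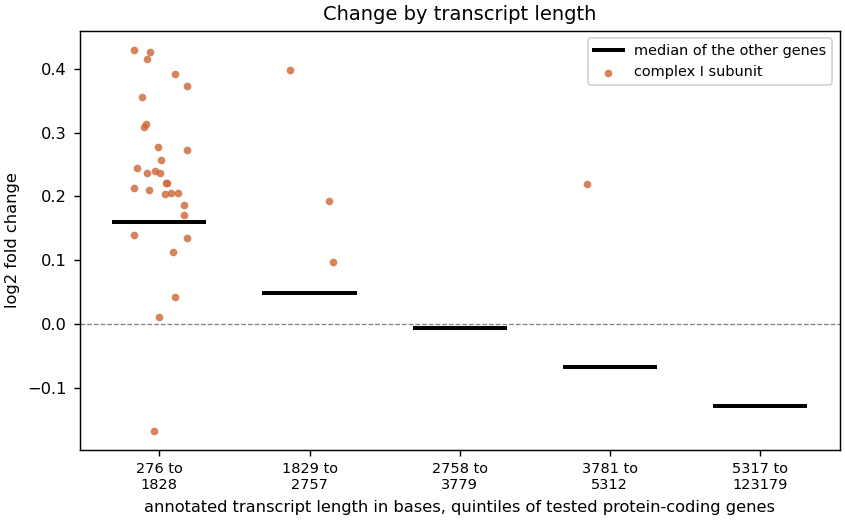
Log2 fold changes are plotted by quintiles of annotated transcript length over the tested protein-coding genes, with black bars for the median of the other genes and points for the subunits. The bars fall from 0.16 in the shortest to -0.13 in the longest quintile, and 30 of the 34 subunits are in the shortest quintile, with a median of 0.23.

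Among controls the subunits varied about as much as other genes at the middle of their CPM range. The SD of log2 CPM over the 6 controls had a median of 0.21 over the 34 subunits, from 0.05 for Ndufv3 to 0.37 for Ndufa12. The median was also 0.21 over 723 other genes between the quartiles of the subunits' CPM (144.6 to 382.7). The genes outside the set whose log2 CPM was closest to the mean of the subunits over the 10 kidneys were Atp5g3, Hint1, Cox4i1, Vps29 and Abhd8, with r of 0.984 to 0.974. Of the subunits, Ndufs3, Ndufb4, Ndufb3, Ndufa5 and Ndufs1 were the least close to the mean of the others, with r of 0.03 to 0.51. These correlations share library and depth and are given as descriptions.

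Of the cell type markers tested, 0 passed the adjusted threshold. Proximal tubule markers summed to 40650 to 54300 CPM in controls and 44800 to 67200 CPM in rilmenidine kidneys, with 4 of 8 above 0 and 0 of 8 at an unadjusted p under 0.05. Kap alone had means of 39170 CPM in controls and 46760 CPM in rilmenidine kidneys, so these sums mostly reflected this gene. Thick ascending limb markers, from a segment dense in mitochondria, summed to 1291 to 2026 against 1595 to 2623 CPM. These sums mostly reflected Umod, with means of 1076 CPM in controls and 1643 CPM in rilmenidine kidneys. Of the 3 tested, Umod (0.61, edgeR adjusted p = 0.243) and Egf (0.42, edgeR adjusted p = 0.385) had an unadjusted p under 0.05. The third, Slc12a1, was at 0.08 (edgeR adjusted p = 0.942). Distal convoluted tubule markers, from another such segment, summed to 745.3 to 1247 against 586.3 to 984.7 CPM, all 3 were below 0, and Slc12a3 was at -0.55 (edgeR adjusted p = 0.313). Principal cell markers summed to 174.1 to 278.4 against 234.0 to 282.3 CPM, with Aqp2 at 0.58 (edgeR adjusted p = 0.229) and Aqp3 at 0.34 (edgeR adjusted p = 0.442). The other principal cell markers, Scnn1g and Hsd11b2, were at 0.11 and 0.06. Immune cell markers summed to 34.9 to 138.4 against 75.9 to 85.3 CPM and blood markers to 980.1 to 8803 against 2874 to 4115 CPM, with the highest sums of both in control 2. Intercalated cell, podocyte, endothelial and adipose markers had overlapping ranges and 0 genes at an unadjusted p under 0.05, and adrenal markers summed to at most 8.69 CPM. The part of the cell mix in the level of the subunits was not tested.

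Promoters of respiratory genes are known to hold sites for NRF1, ETS factors, estrogen-related receptors and YY1. RefSeq windows (GRCm38.p6) of 250 bases before to 50 after a start were found for 32 of the 37 subunits, in 34 windows. Both strands were searched. The YY1 motif AAGATGGCG was in 5 member windows, 14.7%, against 1.40% of 32851 windows, and the NRF1 motif GCATGCGC in 3, 8.82%, against 2.71%. The ETS motif CCGGAAGT was in 1, 2.94%, against 3.89%, and the ERR motif TCAAGGTCA in 0 against 0.423%. A match describes letters only.

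The 5 YY1 matches are shown because all lie 23 to 36 bases after the annotated start, and in all 5 the ATG within the motif is the annotated start codon. The motif itself holds an ATG and the windows run 50 bases past the start, so the search was not independent of start codons. How many of the 32851 windows hold a start codon was not counted, so the shares above do not compare like windows. Capitals mark the motif, and each window is written 5′ to 3′ on the gene's strand.
Ndufa9, chr6:126849097-126849125, minus strand: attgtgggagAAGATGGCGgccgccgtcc
Ndufc1, chr3:51408915-51408943, minus strand: cctgcggaacAAGATGGCGccgtccgtag
Ndufs4, chr13:114388045-114388069, minus strand: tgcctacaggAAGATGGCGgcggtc
Ndufs6, chr13:73328433-73328459, minus strand: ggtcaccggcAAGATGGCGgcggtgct
Ndufs7, chr10:80249463-80249491, plus strand: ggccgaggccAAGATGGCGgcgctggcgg
The log2 fold changes of these 5 were 0.13, 0.21, 0.28, 0.31 and 0.20 in the order shown. The NRF1 matches lie before the start of Ndufa6, Ndufa8 and Ndufa11, whose log2 fold changes were 0.24, 0.21 and 0.21, and capitals again mark the motif.
Ndufa6, chr15:82354357-82354384, minus strand: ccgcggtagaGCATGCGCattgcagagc
Ndufa8, chr2:36049329-36049356, minus strand: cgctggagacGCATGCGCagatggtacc
Ndufa11, chr17:56717694-56717721, plus strand: tgcactgcgcGCATGCGCgcacgccttg
The single ETS match was in Ndufs3, the subunit with the lowest fold change.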

How the data were processed

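For 10 kidney libraries the authors deposited read counts, whole numbers for each Ensembl gene. The columns were matched to samples by the control and rilmenidine names in the labels. The submitters' processing notes name bcl2fastq 1.8.4, Trimmomatic 0.32, STAR 2.5.2b, featureCounts 1.5 and mm10. The annotation release, strand setting and handling of molecular identifiers are not given in the sources used here, so overlapping genes (6 subunits on the same strand, 15 on the opposite strand) and close copies (8 subunits) can share reads. Counts exceed the number of molecules if amplified copies were kept. The methods name 8 control kidneys, of which 6 were analysed here, and the design calls the samples biological replicates.

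A gene was kept when 66.6% of the samples or more had 6 reads or more (10055 genes). Counts were normalized by RLE and fitted with edgeR 4.0.16 (R 4.3.3), glmQLFit and glmQLFTest, two-sided and with no covariate, with Benjamini-Hochberg adjustment of the p-values. Adjusted p-values in the text come from this fit. Each standard error is the absolute log2 fold change divided by the square root of the F statistic of this test. Total counts were compared by an exact permutation test. The fit was tested on simulated data. Gene positions and transcript lengths are those of GENCODE M21 (GRCm38), and copies were found with BLAST 2.17.0 at 95% identity over 100 bases. Full statistics were given for subunits with an unadjusted p under 0.05, the 3 highest and 3 lowest fold changes, the core subunits and Ndufa4, apart from an item that is not reported here; from other lists, genes with an unadjusted p under 0.05 and the extremes were named. Subunits, lists, tests and alternatives were chosen with earlier results of these data known. Alternatives covered normalization (TMM), filters, DESeq2 1.42.0, the likelihood ratio test, covariates, a replicate block, left-out libraries and summed copies.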

Additional observations from a re-analysis of the deposited data

Results flagged for a closer look

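Of 72 groups of values examined (the 34 tested subunits, their mean level and the share of Ndufa12, in each treatment group), 3 held a sample set apart by Dixon's criterion, and chance alone gives about 1 in 20. The mitochondrial kinase-like subunit Ndufa10 was lowest in rilmenidine kidney 2, at a log2 CPM of 8.04 against a median of 8.44 in the other 3, with a gap of 0.876 of the group's range. Ndufs7, a core subunit at the ubiquinone site, was highest in rilmenidine kidney 1, at 7.43 against 7.002, with a gap of 0.896 of the range. The share of the summed Ndufa12 and Gm15920 counts on Ndufa12 was lowest in rilmenidine kidney 4, at 38.6% against 62.8%, with a gap of 0.962 of the range.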

How the results depend on the processing

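Under all 21 alternatives 0 subunits passed the adjusted threshold where the test was run, and none of 399 alternative values of the 20 subunits under the naming rule did (smallest adjusted p 0.0865, edgeR or DESeq2 with Benjamini-Hochberg adjustment). Genes called over the whole table numbered 0 in the analysis reported, 241 when a gene needed 1 count in 1 sample to be kept (64 higher, 177 lower, among 27565 genes), 60 with DESeq2, 44 with the likelihood ratio test and 3 with the replicate block, and 0 to 37 when single kidneys were left out (33 without control 2, 37 without control 6, 6 without rilmenidine 1). The median log2 fold change of the subunits, 0.22, was 0.031 with Malat1 as a covariate, 0.30 over the libraries with receptor gene counts (5 control, 2 rilmenidine) and 0.19 to 0.28 with single kidneys left out. Subunits above 0 numbered 32 to 33 with single kidneys left out and 24 with Malat1. The 10 subunits at an unadjusted p under 0.05 became 1 with library size as a covariate, 0 with Malat1, 5 over the libraries with receptor gene counts, and 6 to 18 with single kidneys left out (6 without control 1, 3 or 5 or rilmenidine 1 or 3, 18 without control 6). Same-numbered kidneys did not deviate together (correlations 0.08, 0.08, -0.08 and -0.01), so the numbers were not taken as pairs, and the replicate block gave 10 such subunits with a median of 0.26. Of the named subunits, 11 of 399 values changed sign: Ndufv1 to -0.024 with library size, Ndufs1 to -0.049, Ndufs7 to -0.028 and Ndufs8 to -0.014 with Malat1, Ndufs3 to 0.039 over the libraries with receptor gene counts, and Ndufb4 to -0.0013 with the block, -0.066 with Malat1 and -0.057 to 0.074 with single kidneys left out. The cause of these changes was not tested. Ndufs3, Ndufs5, Ndufb6 and Ndufa4l2 had at most 24 counts in any library, so their values are imprecise.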
